A study of Mus musculus with 20 samples.

Results

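This is an account of the unchallenged abdominal aorta without lysyl hydroxylase 1 (LH1), the enzyme encoded by *Plod1*. It compares 5 saline-treated *Plod1-/-* mice with 5 saline-treated wild-type (WT) mice across all genes, which makes 10 of the 20 libraries of the study. Both groups were labelled as C57BL/6 mice, 6 months old, that received saline for 14 days from an osmotic pump under the skin. The other 10 libraries, 5 WT and 5 *Plod1-/-*, came from mice given angiotensin II (Ang II) at 1000 ng/kg per minute for the same time, and they enter here only to show the same genes under that treatment. Per the study's methods the mice were littermates from crosses of heterozygous *Plod1+/-* animals, and only males were studied. The methods give the substrain as C57Bl/6NCrl and a younger age at pump implantation than the labels do. The measurement is RNA abundance in whole aortic tissue, in FPKM, fragments scaled to transcript length and to the mapped reads of the library. In such bulk tissue, fewer cells of a type and less RNA per cell cannot be told apart.

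LH1 adds hydroxyl groups to lysines of newly made collagen chains inside the endoplasmic reticulum (ER), and the hydroxylysines later anchor the cross-links that make collagen fibrils strong. The same compartment holds prolyl hydroxylases, the collagen chaperone HSP47 and general chaperones such as BiP, and loss of LH1 in humans causes a form of Ehlers-Danlos syndrome in which arteries can rupture. The study asked how aortic gene expression differs when LH1 is missing, and the saline groups show the state before Ang II is given.

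The labels were checked first. *Plod1* (ENSMUSG00000019055, chromosome 4, 147909753 to 147936767 on GRCm38) was listed at 26.1, 26.2, 27.9, 22.9 and 26.5 FPKM in WT replicates 1 to 5 and at 0.0311, 0.0299, 0, 0.0415 and 0 FPKM in the *Plod1-/-* replicates, so genotype and label matched in all 10 mice (log2 fold change -4.72, SE 0.07, adjusted p = 8.75e-12). Of 25 tested genes within 1 Mb of *Plod1*, 0 were differentially expressed by the rule given below and 1 passed the adjusted p alone. The tissue label was also checked. Contractile smooth muscle genes summed to 20017 to 28478 FPKM in WT aortas and 21407 to 29723 FPKM in *Plod1-/-* aortas. *Acta2*, the actin of smooth muscle, was listed at 11783 to 17399.5 FPKM in WT and 12424 to 17685 in *Plod1-/-* mice. *Tagln* is the exception among the defining markers, at 7.47 to 10.6 FPKM in WT and 5.79 to 9.72 in *Plod1-/-* mice, and it overlaps *Pcsk7* on the opposite strand. Markers of adrenal cortex and kidney epithelium summed to at most 1.73 and 2.18 FPKM. Mitochondrial genes took 8.37% to 14.6% of the FPKM sum in WT and 9.93% to 16.2% in *Plod1-/-* libraries, and the relative depth of the libraries ran from 0.925 to 1.08. The library labelled *Plod1-/-* replicate 5 held *Xist* RNA at 15.1 FPKM, against at most 0.0328 in the other 9, and its Y-linked genes *Ddx3y* and *Eif2s3y* were at 0.0961 and 0.0514 FPKM, against at least 8.74 and 6.68. The DEG count is also given without that library, and so are several list counts that changed without it. *Nnt*, part of which is missing in C57BL/6J but not in the C57BL/6N substrains that the methods name, was at most 0.0874 FPKM in all 20 mice, and the substrain was not tested further.

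The test covered 11999 genes, those that reached 1 FPKM in 5 or more of the 10 mice. Of them 92 (0.767%) differed between the genotypes, with a limma adjusted p below 0.05 and log2 fold changes beyond 1 in either direction, and these are called DEGs. Of these, 43 (0.358% of the genes tested) were higher and 49 (0.408%) lower in *Plod1-/-* mice. At the adjusted p alone 786 genes (6.55%) differed, of which 399 genes (3.33%) were higher and 387 (3.23%) lower. These shares stand beside every list count below that names none. The median log2 fold change of all genes was -0.01. The 2 groups of mice did not overlap in 34 of the higher and 35 of the lower DEGs, against 506 (4.22%) and 636 (5.3%) of all genes tested, 1142 (9.52%) together. The 20 largest increases and 20 largest decreases named below were taken from DEGs without overlap, so their separation is no further evidence. The filter lets a gene pass through its higher group alone, and 7 DEGs were below 1 FPKM in every mouse of the other group (*Serinc2*, *Nfasc*, *Prune2*, *Gprc5c* and *Sbspon* in WT, *Plod1* and *Gm24967* in *Plod1-/-* mice). Protein-coding genes made up 85 of the 92. The number of DEGs depended on single mice. It was 38 without *Plod1-/-* replicate 4, 42 without WT replicate 2, 55 and 57 without *Plod1-/-* replicates 2 and 3, and 60 without *Plod1-/-* replicate 5, the library with *Xist* RNA, of which 53 were among the 92. It was 104 and 103 without WT replicate 5 and *Plod1-/-* replicate 1. At the adjusted p alone, 153 to 695 genes passed in the 10 fits that left out a saline mouse. Without *Plod1-/-* replicate 5 it was 292 of 11831, and 1.01% of all genes were lower. List counts from these fits therefore fall along with the calls over all genes.

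**Figure D1:**
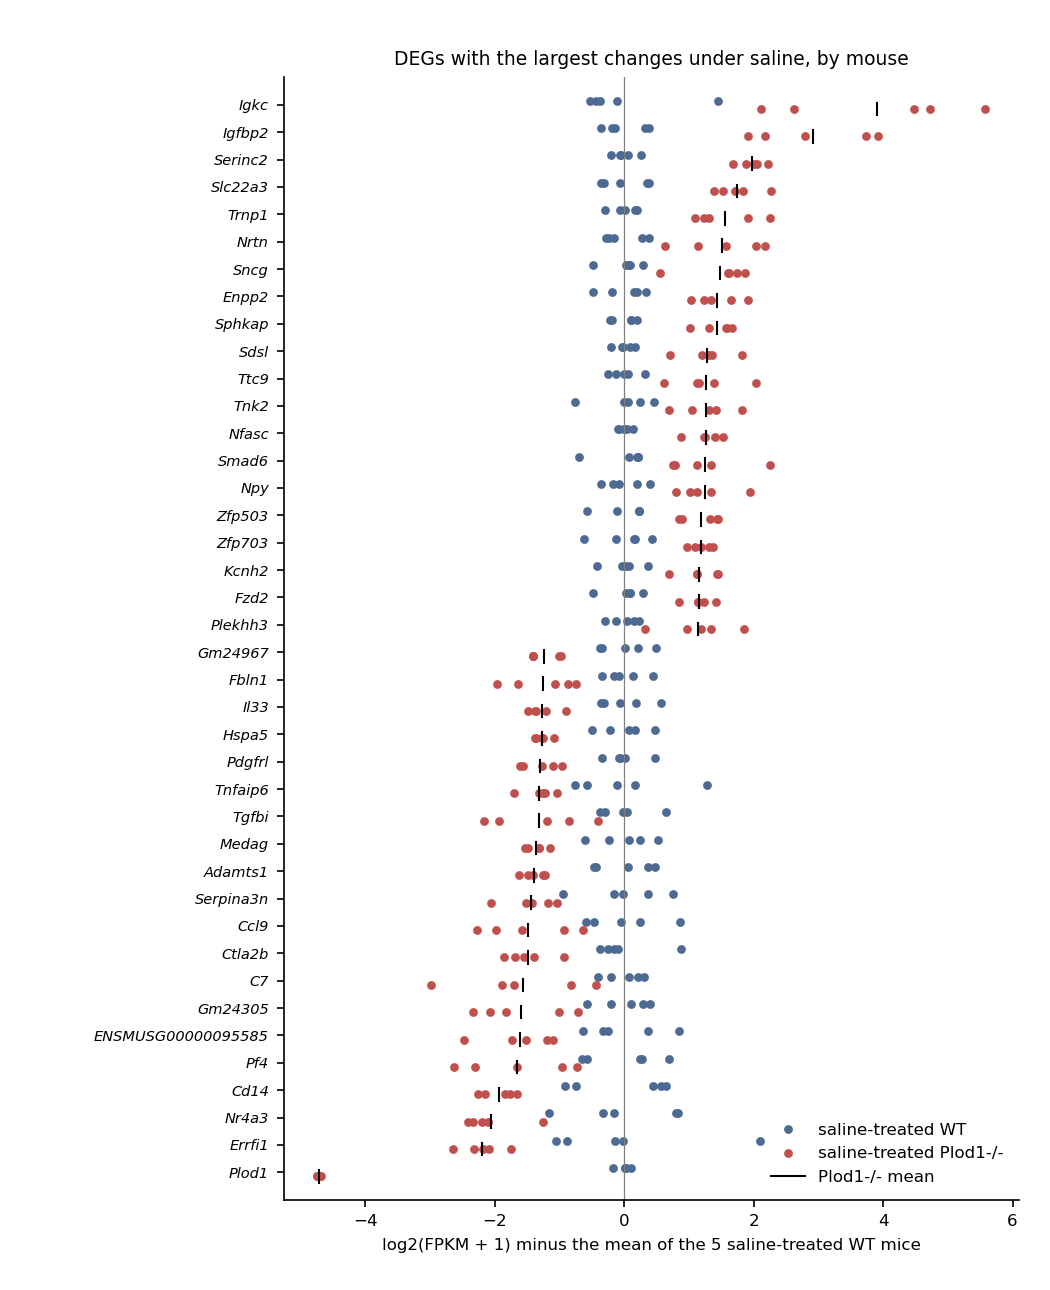
Each point is a mouse: the log2(FPKM + 1) of saline-treated WT (blue) and saline-treated Plod1-/- mice (red), minus the WT mean of that gene, for the 20 largest increases and the 20 largest decreases among DEGs whose groups do not overlap, with black bars at the Plod1-/- means. Plod1 lies at -4.72 in Plod1-/- mice, Igkc and Igfbp2 have the largest increases with wide spread between Plod1-/- mice, and Errfi1 has a WT mouse far above the other WT mice.

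Genes that work beside LH1 on collagen were lower in *Plod1-/-* mice where they passed the test. Of 12 tested collagen hydroxylase genes, 4, the deleted *Plod1* among them, were lower and 0 higher at the adjusted p, against 3.23% and 3.33% of all genes. After *Plod1* the largest decrease was in *P4ha1*, a catalytic subunit of the prolyl 4-hydroxylase that stabilizes the collagen triple helix. Its FPKM was 52.7, 60.6, 39, 31.9 and 35.5 in WT and 18, 19.2, 17.4, 27 and 19.7 in *Plod1-/-* mice (log2 fold change -1.05, SE 0.18, adjusted p = 0.0138). The groups did not overlap, although the highest *Plod1-/-* mouse was close to the lowest WT mouse. *P4hb*, the other subunit of that enzyme, fell from 287 ± 20.6 to 217 ± 10.2 FPKM (SD, n = 5; log2 fold change -0.4, SE 0.08, adjusted p = 0.0227), and *P4ha2* from 20.2 ± 2.71 to 15.4 ± 1.11 FPKM (log2 fold change -0.36, SE 0.09, adjusted p = 0.0472). The other lysyl hydroxylases did not pass the test. *Plod2*, which hydroxylates the ends of collagen chains, was at 13.7 ± 1.39 FPKM in WT aortas and 11.3 ± 2.11 FPKM in *Plod1-/-* aortas (SD, n = 5; log2 fold change -0.27, SE 0.12, adjusted p = 0.168), and *Plod3* at 37.5 ± 2.04 and 33.2 ± 1.33 FPKM (log2 fold change -0.17, SE 0.07, adjusted p = 0.119). Both means were lower in *Plod1-/-* mice, and the groups overlapped for *Plod2* but not for *Plod3*.

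Of 16 tested genes that help collagen fold, leave the ER or mature, 5 were lower and 0 higher at the adjusted p, against the same 3.23% and 3.33%. *Serpinh1* (ENSMUSG00000070436, chromosome 7, 99345376 to 99353239), which encodes HSP47, the chaperone specific for procollagen, was at 682, 809.8, 533, 590.4 and 453 FPKM in WT aortas and 266, 288, 246, 338 and 279 FPKM in *Plod1-/-* aortas (log2 fold change -1.09, SE 0.15, adjusted p = 0.00684). Every *Plod1-/-* mouse lay below every WT mouse. *Pcolce2*, an enhancer of the protease that trims procollagen, was at 43.7, 31.4, 35.2, 36.7 and 32.9 FPKM in WT aortas and 24.3, 20.2, 13.4, 8.3 and 12 FPKM in *Plod1-/-* aortas (log2 fold change -1.23, SE 0.24, adjusted p = 0.0212). The related enhancer *Pcolce*, the collagen export factor *Mia3* and the retrieval receptor *Kdelr3* had log2 fold changes of -0.8, -0.31 and -0.58, with adjusted p-values of 0.0277, 0.0312 and 0.0445. The whole list summed to 984 to 1438 FPKM in WT aortas and 699 to 805 FPKM in *Plod1-/-* aortas, without overlap. Fibroblast markers were lower in the same mice (12 of 13 negative, median log2 fold change -0.59), and their part in these decreases was not tested. Of 6 tested fibrillar collagen genes, 0 passed the adjusted p, and their median log2 fold change was -0.20. *Col1a1* was at 112 ± 24.7 FPKM in WT aortas and 96.9 ± 29.5 FPKM in *Plod1-/-* aortas, and *Col3a1* at 101 ± 29.8 and 82.8 ± 27.7 FPKM (SD, n = 5; adjusted p = 0.511 and 0.476). Of 4 tested lysyl oxidase genes, which encode the enzymes that start cross-linking outside the cell, 0 passed, and *Lox* came nearest (log2 fold change -0.84, adjusted p = 0.0601). *P4ha2* passed in 0 of the 10 fits that left out a saline mouse. *Kdelr3* missed the adjusted p in 8 of them, *Mia3* in 7, *Pcolce* in 5 and *P4hb* in 3. Leaving out *Plod1-/-* replicate 5 left 3 hydroxylase and 2 folding genes lower at the adjusted p. Over all 10 fits these counts ran from 1 to 3 (*Plod1* itself falls below the filter when a WT mouse is left out) and from 2 to 6. *P4ha1* lost its DEG call without WT replicate 1 or 2 and *Serpinh1* without WT replicate 2.

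Of the 43 gene lists examined, the one with the most genes past the adjusted p was that of the protein-folding genes of the ER. Of 31 tested ER chaperone and stress genes, 15 were lower and 0 higher at the adjusted p, against 3.23% and 3.33% of all genes. The log2 fold change was negative in 29 of the 31, with a median of -0.53, and the groups did not overlap in 15 of them. The summed level was 1655 to 2380 FPKM in WT mice and 1202.5 to 1318 FPKM in *Plod1-/-* mice, so the *Plod1-/-* mice also lay closer together than the WT mice. Over the 9 other ways of fitting the data and the 10 fits that left out a saline mouse, 10 to 16 of these genes were lower and 0 higher. Without the library that held *Xist* RNA 12 were lower, against 1.01% of all genes in that fit.

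Of the 15 decreased genes, 7 carry in their promoter an exact copy of the ER stress response element, which is CCAAT, 9 bases of any kind and CCACG, and through which ATF6 and related factors are known to act when unfolded protein accumulates. They are shown because these 7 promoters share it. Each line gives 59 bases of the GRCm38.p6 RefSeq promoter table, 5′ to 3′ on the strand of the gene, with the fixed letters of the element in capitals (CGTGG and ATTGG where it reads in the opposite direction).
Hspa5 (chr2:34772005-34772063, strand +): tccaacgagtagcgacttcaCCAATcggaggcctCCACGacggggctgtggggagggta
Creld2 (chr15:88819500-88819558, strand +): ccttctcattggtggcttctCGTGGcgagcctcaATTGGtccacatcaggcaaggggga
Pdia6 (chr12:17266471-17266529, strand +): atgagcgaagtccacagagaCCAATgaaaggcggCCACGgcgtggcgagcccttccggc
Hsp90b1, nearer copy (chr10:86705513-86705571, strand -): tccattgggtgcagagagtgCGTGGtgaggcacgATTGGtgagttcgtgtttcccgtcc
Hsp90b1, farther copy (chr10:86705618-86705676, strand -): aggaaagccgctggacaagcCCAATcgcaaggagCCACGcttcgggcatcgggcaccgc
Calr (chr8:84847055-84847113, strand -): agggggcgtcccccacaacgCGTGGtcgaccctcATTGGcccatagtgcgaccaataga
Canx (chr11:50325780-50325838, strand -): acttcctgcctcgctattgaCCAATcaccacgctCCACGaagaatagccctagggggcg
Dnajc3 (chr14:118937807-118937865, strand +): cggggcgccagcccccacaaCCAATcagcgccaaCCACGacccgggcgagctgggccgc
The element, searched on both strands of windows from 250 bases before to 50 bases after each transcription start, was present in 39 of 32851 windows (0.119%) and in 37 of 27025 genes (0.137%). It was found in 7 of the 14 decreased ER genes that have a window in the table and in 1 of 13 other tested ER genes. Of the 8670 tested genes that have a window, 14 carry it, and the other tested genes were not searched. The 7 of these 14 that passed the adjusted p are the 7 shown, from a list and with an element chosen after the decrease was seen. A match is a statement about letters in these windows, and binding of any factor was not measured.

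*Hspa5* (ENSMUSG00000026864, chromosome 2, 34771970 to 34777547), which encodes BiP, the main chaperone of the ER and the sensor that holds the stress receptors inactive, was at 322, 427, 264, 347 and 218 FPKM in WT aortas and 128, 127, 119, 144 and 117 FPKM in *Plod1-/-* aortas (log2 fold change -1.27, SE 0.16, adjusted p = 0.00474). The groups were far apart, with the *Plod1-/-* mice within a narrow band. *Creld2*, a secreted ER stress protein, was at 66.7, 81, 68, 67.3 and 42.2 FPKM in WT and at 25, 24.8, 30.5, 34.6 and 24.7 FPKM in *Plod1-/-* aortas (log2 fold change -1.17, SE 0.16, adjusted p = 0.00679), and *Sdf2l1*, which assists BiP, at 13.1, 23.3, 15.8, 15.5 and 13.2 FPKM in WT and at 6.24, 8.05, 8.9, 8.35 and 5.6 FPKM in *Plod1-/-* aortas (log2 fold change -1.01, SE 0.16, adjusted p = 0.0116). *Pdia6*, a disulfide isomerase, was at 86.2, 109, 93.6, 101 and 68.1 FPKM in WT and at 42.9, 45.8, 46.7, 49 and 45.5 FPKM in *Plod1-/-* aortas. Its fold change just missed the limit for a DEG (log2 fold change -0.96, SE 0.12, adjusted p = 0.00456). In none of these 3 genes did the groups overlap. Other members that decreased were *Hsp90b1*, the ER member of the HSP90 family, (-0.77), the lectin chaperone genes *Calr* (-0.57) and *Canx* (-0.36), the isomerase genes *Pdia3* (-0.59) and *Pdia4* (-0.62), the BiP co-chaperone genes *Dnajb9* (-0.53), *Dnajb11* (-0.6) and *Dnajc3* (-0.53), and *Hyou1* (-0.76), all as log2 fold changes. *Xbp1* and *Atf4*, transcription factors of the unfolded protein response, were at 82.8 ± 17 and 206 ± 70.3 FPKM in WT aortas and at 49 ± 6.42 and 112 ± 8.72 FPKM in *Plod1-/-* aortas (SD, n = 5; adjusted p = 0.0233 and 0.032). The pro-apoptotic target *Ddit3* (-0.37, adjusted p = 0.204) did not pass. The libraries carry no strand, so reads of *Pdia6* and *Hsp90b1* cannot be told apart from those of *Atp6v1c2* and 1810014B01Rik on the opposite strand. *Dnajb9* and *Canx* missed the adjusted p in 8 of the 10 fits that left out a mouse, *Atf4* in 6 and *Xbp1* in 3. *Hspa5* and *Creld2* were DEGs in all 10, and *Sdf2l1* fell below the limit of fold change, at an adjusted p of at most 0.0293, without WT replicate 2 or *Plod1-/-* replicate 1 or 5.

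**Figure D2:**
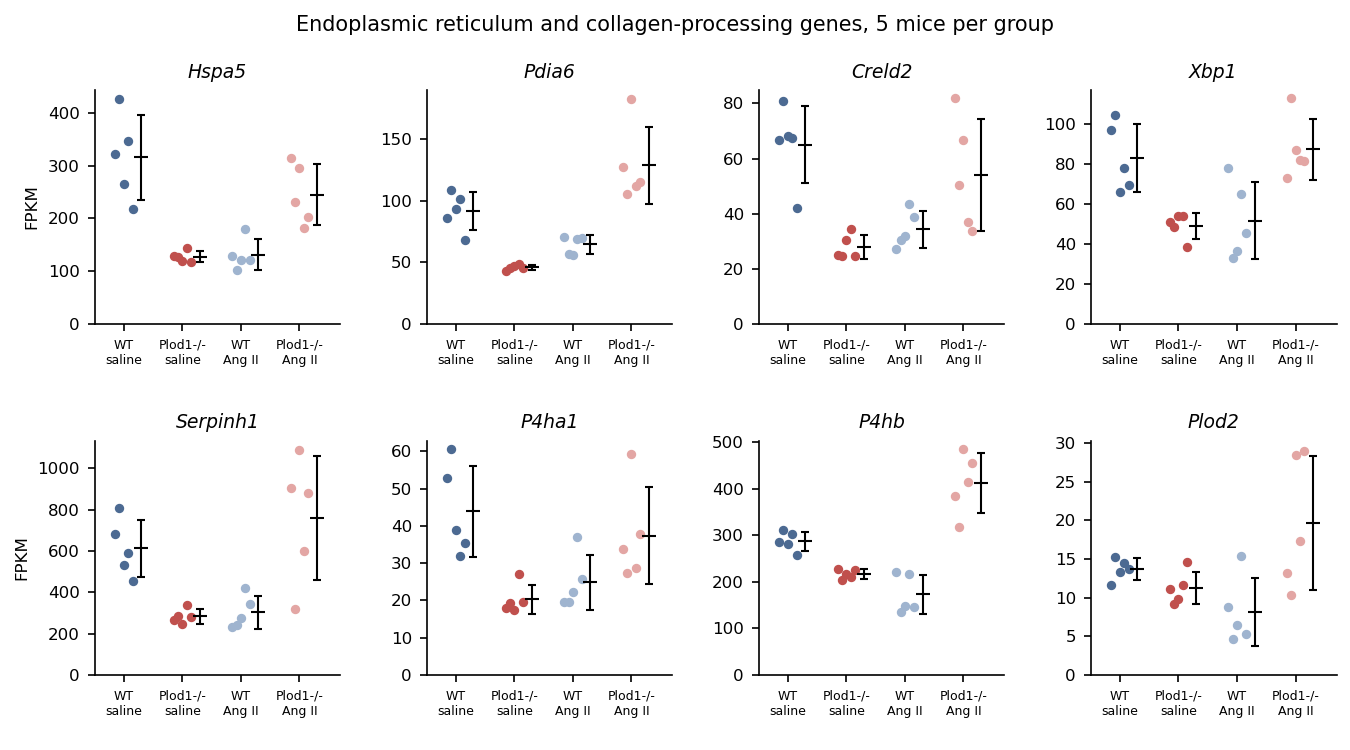
FPKM of 8 ER and collagen-processing genes in each mouse (points) of the 4 groups, with the mean and SD of 5 mice (black). Saline-treated Plod1-/- mice lie below saline-treated WT mice in Hspa5, Pdia6, Creld2, Xbp1, Serpinh1, P4ha1 and P4hb without overlap, while Plod2 overlaps, and among the Ang II-treated mice the Plod1-/- means are the higher ones in each panel.

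Genes of the cytosolic heat shock response and immediate early genes, both of which respond quickly to cell stress, had mostly negative log2 fold changes, of which few passed the test. All 17 tested heat shock genes had negative log2 fold changes (median -0.61). Of these, 4 passed the adjusted p, against 3.23% of all genes lower. It was 2 without *Plod1-/-* replicate 5, and 0 to 4 over all fits that left out a mouse. *Hspb1*, a small heat shock protein abundant in smooth muscle, was at 2464, 3508, 3108, 2936 and 1693 FPKM in WT aortas and 866, 1079, 1726, 1371 and 1222 FPKM in *Plod1-/-* aortas, with WT replicate 5 inside the range of the *Plod1-/-* mice (log2 fold change -1.12, SE 0.22, adjusted p = 0.0237). The HSP90 genes *Hsp90aa1* and *Hsp90ab1* had log2 fold changes of -0.87 and -0.67 (adjusted p = 0.0309 and 0.0219), and *Hspe1* one of -0.51 (adjusted p = 0.0472). Of 24 tested immediate early genes 23 had negative values (median -0.91), and 2 were lower DEGs, against 0.408% of all genes. *Fosb*, a subunit of the AP-1 factor, was at 46.6, 39.5, 23, 69.5 and 16.7 FPKM in WT aortas and 2.04, 1.28, 3.88, 19 and 11.8 FPKM in *Plod1-/-* aortas (log2 fold change -2.54, SE 0.6, adjusted p = 0.0353), with *Plod1-/-* replicate 4 above the lowest WT mouse. *Nr4a3*, a nuclear receptor induced by growth factors, was at 28.1, 28.8, 6.49, 14 and 12.2 FPKM in WT and at 2.32, 2.62, 2.87, 6 and 2.15 FPKM in *Plod1-/-* aortas (log2 fold change -2.06, SE 0.37, adjusted p = 0.0155). *Errfi1*, the feedback inhibitor of the EGF receptor, was at 951, 199.6, 119.8, 217 and 106 FPKM in WT aortas and 48.1, 34.4, 43.3, 64.7 and 51.2 FPKM in *Plod1-/-* aortas (log2 fold change -2.2, SE 0.5, adjusted p = 0.0321). WT replicate 1 stood far above the others, and without it the difference remained at an adjusted p below 0.05. The spread within groups was wide in these genes. *Fos* and *Egr1* (-2.27 and -1.88) missed the adjusted p at 0.107 and 0.0554. *Hspb1* lost its call in 4 of the 10 fits that left out a mouse and *Fosb* and *Errfi1* in 6, with adjusted p-values up to 0.058, 0.0779 and 0.0718. *Nr4a3* kept it in all 10. The adjusted p was missed in 9 of these fits by *Hspe1*, in 7 by *Hsp90aa1* and in 1 by *Hsp90ab1*. Under Ang II, *Nr4a3* was at 0.75 to 1.92 FPKM in WT and 1.16 to 3.08 in *Plod1-/-* mice. *Errfi1* was there at 17.5 to 87.6 FPKM in WT and 47.3 to 150 in *Plod1-/-* mice. *Hspb1* was at 666 to 797 FPKM against 327 to 2870, and *Fosb* at 0.489 to 1.76 FPKM against 12.4 to 68.7, in the same order.

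Some matrix genes were lower. *Sparc*, a collagen-binding glycoprotein that guides procollagen processing, was at 1312, 1312, 1204, 1358 and 1352 FPKM in WT aortas and 884, 796, 730.5, 693 and 776 FPKM in *Plod1-/-* aortas (log2 fold change -0.76, SE 0.09, adjusted p = 0.00456). *Fbln1*, a fibulin of elastic fibres and basement membranes, was at 164, 109, 114, 133 and 95.2 FPKM in WT and at 57.4, 71.8, 38.2, 30.3 and 65.6 FPKM in *Plod1-/-* aortas (log2 fold change -1.26, SE 0.24, adjusted p = 0.02) and was a DEG in all 10 fits that left out a mouse. Of 16 tested elastic fibre genes, the microfibril genes *Mfap4* and *Mfap5* also decreased (-0.65 and -0.81), whereas *Ltbp2*, which binds fibrillin, rose from 21.9 ± 3.37 to 31.7 ± 2.7 FPKM (SD, n = 5; log2 fold change 0.52, SE 0.11, adjusted p = 0.0277). *Mfap4* and *Ltbp2* each missed the adjusted p in 4 of the 10 fits that left out a mouse, and *Mfap5* in 0. *Smoc2* and *Tgfbi*, secreted proteins that bind cells to matrix, fell from 95.7 ± 18.7 and 188 ± 58.4 FPKM to 47.1 ± 13.9 and 80.5 ± 39.8 FPKM (adjusted p = 0.0233 and 0.0401), with the call of *Tgfbi* lost in 7 of the 10 fits that left out a mouse. Of 24 tested metallopeptidases and inhibitors, 4 were lower and 1 higher at the adjusted p, against 3.23% and 3.33% of all genes. Without *Plod1-/-* replicate 5, 1 was lower and 0 higher, in a fit where 1.01% of all genes were lower. *Adamts1*, a protease of versican and other proteoglycans, was at 159, 119, 83.3, 146 and 82.3 FPKM in WT aortas and 42.4, 36.2, 39.9, 47.9 and 47.2 FPKM in *Plod1-/-* aortas (log2 fold change -1.4, SE 0.19, adjusted p = 0.0058), and every *Plod1-/-* mouse lay below every WT mouse. *Mmp19* (-1.03) was a DEG, lost in 5 of the 10 fits that left out a mouse. *Mmp2* (-0.66) and *Adam8* (-0.61) were lower at the adjusted p, which *Mmp2* missed in 7 of those fits and *Adam8* in 4 of the 5 where it passed the filter, and *Timp4*, an inhibitor of these enzymes, was higher at 8.64 ± 2.98 against 17.4 ± 3.82 FPKM (SD, n = 5; log2 fold change 0.96, SE 0.21, adjusted p = 0.0303), which missed the adjusted p in 5 of the 10 fits.

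Markers of fibroblasts moved with these genes. Of 13 tested markers, 12 had negative log2 fold changes, 4 were lower at the adjusted p, against 3.23% of all genes, and the median was -0.59. The summed level of the list was 2146 to 3234 FPKM in WT aortas and 1282 to 2374 FPKM in *Plod1-/-* aortas, and no marker was at 0. *Pi16*, a marker of adventitial fibroblasts, was at 195, 121, 138, 179 and 132 FPKM in WT aortas and 88.8, 109, 69.2, 35.6 and 60.6 FPKM in *Plod1-/-* aortas (log2 fold change -1.13, SE 0.26, adjusted p = 0.0344), and *Clec3b* at 380.1, 242, 241, 325 and 157 FPKM in WT and at 127, 184, 123, 73.3 and 82.9 FPKM in *Plod1-/-* aortas (log2 fold change -1.2, SE 0.28, adjusted p = 0.0346). *Pdgfra* and *Col14a1* had log2 fold changes of -0.59 and -0.68 and missed the adjusted p in 3 and 6 of the 10 fits that left out a mouse. *C7*, a complement component made by fibroblasts, was at 173, 105, 161, 148 and 121 FPKM in WT and at 78.3, 103, 42, 37.1 and 16.8 FPKM in *Plod1-/-* aortas (log2 fold change -1.57, SE 0.4, adjusted p = 0.0437). The groups were close for *C7* and overlapped for *Clec3b*, and the 3 calls depended on single mice. *Pi16* and *Clec3b* lost theirs in 7 and *C7* in 8 of the 10 fits that left out a mouse, among them the fit without *Plod1-/-* replicate 5. In that fit 1 fibroblast marker was lower at the adjusted p, against 1.01% of all genes, and 0 were DEGs. The part of fibroblast content in the matrix results was not tested. Of 12 tested endothelial markers 11 were negative with a median of -0.52, and 0 passed the adjusted p.

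**Figure D3:**
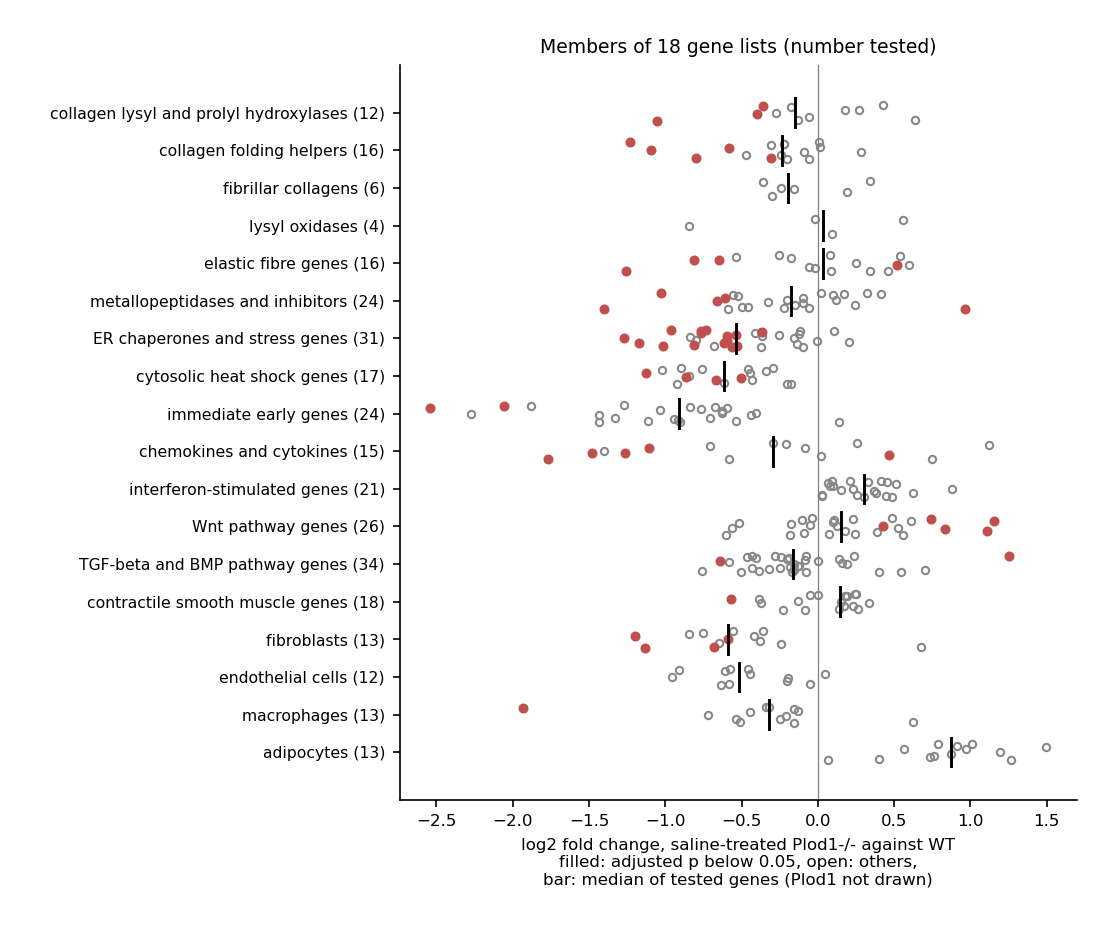
Log2 fold changes of the tested members of 18 gene lists between saline-treated Plod1-/- and saline-treated WT mice (points, filled where the adjusted p is below 0.05) with the median of each list (bar), Plod1 itself not drawn. ER genes, heat shock genes and immediate early genes lie almost wholly below 0, Wnt genes that passed lie above 0, and interferon and adipocyte genes lie above 0 without a member that passed.

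Several inflammatory genes were at lower levels in *Plod1-/-* mice before any challenge. Of 15 tested chemokine and cytokine genes, *Il33*, *Ccl7*, *Ccl9* and *Cxcl1* were lower and *Cx3cl1* was higher at the adjusted p, against 3.23% and 3.33% of all genes. Without *Plod1-/-* replicate 5, 2 were lower and 0 higher, and over all fits that left out a mouse 1 to 4 were lower. By sign, 10 of the 15 were negative and 5 positive. Among list members below the filter, an exact permutation test at an unadjusted p below 0.05 put *Ccl5* (0.71), *Cxcl10* (0.77) and *Ccl22* (0.18) higher. It put *Cxcl2* (-1.32), *Ccl3* (-0.78), *Tnf* (-0.32) and *Il1b* (-0.23) lower, all as log2 differences. *Il33*, an alarmin kept in the nucleus of stromal cells, was at 10, 14.5, 12.1, 19.4 and 9.72 FPKM in WT aortas and 4.27, 6.4, 4.37, 3.91 and 4.96 FPKM in *Plod1-/-* aortas (log2 fold change -1.27, SE 0.18, adjusted p = 0.00685), without overlap. *Cd14*, the co-receptor for bacterial lipopolysaccharide on macrophages, was at 56.4, 52, 19.7, 59.7 and 22.1 FPKM in WT and at 7.7, 10.5, 11.4, 7.09 and 9.8 FPKM in *Plod1-/-* aortas (log2 fold change -1.94, SE 0.31, adjusted p = 0.0114). The *Plod1-/-* mice were uniformly low, whereas WT replicates 3 and 5 lay well below the other WT mice. Of 13 tested macrophage markers, *Cd14* alone passed, 12 were negative, and the list summed to 228 to 379 FPKM in WT aortas and 150 to 606 FPKM in *Plod1-/-* aortas. The 3 chemokines and the platelet factor *Pf4* had log2 fold changes of -1.77, -1.48, -1.11 and -1.66 (adjusted p = 0.0455, 0.0353, 0.0371 and 0.0353), and each lost the call in 6 to 8 of the 10 fits that left out a mouse. *Ccl2*, which attracts monocytes, was at 17.1, 12.8, 2.14, 5.85 and 3.31 FPKM in WT aortas and 0.863, 1.63, 4.92, 1.94 and 1.1 FPKM in *Plod1-/-* aortas and did not pass (log2 fold change -1.4, SE 0.48, adjusted p = 0.0964). The membrane-bound chemokine *Cx3cl1* was higher in *Plod1-/-* mice (log2 fold change 0.46, SE 0.1, adjusted p = 0.0265). *Tnfaip6*, a hyaluronan-binding protein induced by inflammation, and *Bdkrb1*, the inducible bradykinin receptor, were lower, at 1.77 to 10.3 against 0.433 to 1.29 FPKM and 3.32 to 6.89 against 1.25 to 1.59 FPKM (log2 fold change -1.31, SE 0.33, adjusted p = 0.0402, and log2 fold change -1.13, SE 0.15, adjusted p = 0.00559). *Tnfaip6* lost the call in 8 of the 10 fits that left out a mouse and *Bdkrb1* in 1. *Hmox1*, which breaks down heme, was at 22.1 ± 6.92 FPKM in WT aortas and 10.4 ± 3.12 FPKM in *Plod1-/-* aortas (SD, n = 5; adjusted p = 0.0353) and lost the call in 7 of those fits. *Serpina3n*, an acute phase protease inhibitor, was at 44.5, 85.1, 77.2, 147 and 112 FPKM in WT and at 29.6, 41.7, 37.8, 20.1 and 31.7 FPKM in *Plod1-/-* aortas (log2 fold change -1.44, SE 0.29, adjusted p = 0.0246). Without WT replicate 2 or *Plod1-/-* replicate 4 it was no longer a DEG.

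Immunoglobulin RNA stood out on the other side. *Igkc* (ENSMUSG00000076609, chromosome 6, 70726435 to 70726966), the constant region of the kappa light chain made by B and plasma cells, had the largest increase of all. It was at 1.7, 1.81, 9.01, 2.38 and 1.55 FPKM in WT aortas and 21.6, 95.8, 80.7, 173 and 14.9 FPKM in *Plod1-/-* aortas (log2 fold change 3.91, SE 0.65, adjusted p = 0.0122). All 5 *Plod1-/-* mice were above the highest WT mouse, and they spread widely among themselves. *Ighm*, the heavy chain of IgM, was at 6.38, 1.31, 6.8, 1.87 and 2.12 FPKM in WT and at 11, 49.1, 31.7, 31.9 and 6.41 FPKM in *Plod1-/-* aortas (log2 fold change 2.4, SE 0.54, adjusted p = 0.0321), with *Plod1-/-* replicate 5 below the highest WT mouse, and it lost the DEG call in 6 of the 10 fits that left out a mouse. The whole list of T and B cell markers summed to 5.73 to 19.2 FPKM in WT aortas and 23.6 to 210 FPKM in *Plod1-/-* aortas. Only these 2 of its 14 genes passed the filter. Among the rest *Jchain* was at 0.0779 to 0.542 FPKM in WT and 0.439 to 2.48 in *Plod1-/-* mice, *Cd79a* at 0.383 to 0.915 FPKM in WT and 0.367 to 1.8 in *Plod1-/-* mice and the T cell gene *Cd3e* at 0.154 to 0.426 FPKM in WT and 0.0743 to 0.588 in *Plod1-/-* mice, levels near the lower end of these libraries.

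*Igfbp2* (ENSMUSG00000039323, chromosome 1, 72824503 to 72852474), a binding protein for insulin-like growth factors, had the next largest increase. Its FPKM was 24.2, 35.2, 20.7, 33.7 and 23.5 in WT and 104, 192, 372, 423 and 125 in *Plod1-/-* mice (log2 fold change 2.91, SE 0.37, adjusted p = 0.00486), without overlap. *Serinc2*, a membrane protein of the serine incorporator family, had the lowest adjusted p after *Plod1*, at 0.313, 0.446, 0.795, 0.561 and 0.456 FPKM in WT aortas and 3.84, 4.56, 5.02, 6.06 and 5.26 FPKM in *Plod1-/-* aortas (log2 fold change 1.97, SE 0.12, adjusted p = 2e-05). *Slc22a3*, the extraneuronal transporter of monoamines, was at 2.44, 1.89, 3.62, 1.81 and 3.72 FPKM in WT and at 16.3, 11.9, 9.37, 10.8 and 8.42 FPKM in *Plod1-/-* aortas (log2 fold change 1.75, SE 0.2, adjusted p = 0.00355). *Enpp2*, which encodes autotaxin, the enzyme that makes lysophosphatidic acid, was at 3.43, 2.62, 5.38, 4.6 and 4.81 FPKM in WT and at 18, 14.9, 11.8, 11 and 9.41 FPKM in *Plod1-/-* aortas (log2 fold change 1.44, SE 0.19, adjusted p = 0.00559). The groups lay apart in all of these genes, which was a condition for naming them. *Trnp1*, *Sncg* and *Sphkap*, the last an anchor protein for protein kinase A, rose from 4.04 ± 0.676, 50.7 ± 9.42 and 0.827 ± 0.238 FPKM to 14.5 ± 5.7, 147 ± 42.9 and 3.95 ± 0.868 FPKM (SD, n = 5), with log2 fold changes of 1.56, 1.48 and 1.43 (adjusted p = 0.00601, 0.011 and 0.00152). *Igfbp2*, *Slc22a3*, *Enpp2*, *Trnp1*, *Sncg* and *Sphkap* kept the DEG call in all 10 fits that left out a mouse. *Slc22a3* overlaps the plasminogen gene *Plg* on the opposite strand. *Serinc2*, like *Nfasc*, *Prune2* and *Gprc5c*, fell below the filter when a *Plod1-/-* mouse was left out and kept the call in the other 5 fits.

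The Wnt signalling genes that passed the limma test all rose. Wnt ligands bind Frizzled receptors, and R-spondins strengthen the signal by keeping these receptors on the cell surface. Of 26 tested Wnt pathway genes, 5 were higher and 0 lower at the adjusted p, against 3.33% and 3.23% of all genes, and the median was 0.15. Among the pathway genes below the filter, *Wnt2* and *Fzd3* lay the other way without overlap, at 0.73 to 1.34 FPKM in WT and 0.233 to 0.716 in *Plod1-/-* mice and at 0.436 to 0.787 against 0.199 to 0.388 FPKM. The receptor *Fzd2* was at 8.56, 12.7, 13.2, 13.2 and 15.3 FPKM in WT aortas and 23, 28.4, 30.3, 34.8 and 28.4 FPKM in *Plod1-/-* aortas (log2 fold change 1.15, SE 0.15, adjusted p = 0.00474). *Fzd8* was at 2.05, 3.1, 2.64, 2.76 and 3.64 FPKM in WT and at 4.61, 7.94, 6.48, 10.4 and 7.57 FPKM in *Plod1-/-* aortas (log2 fold change 1.11, SE 0.18, adjusted p = 0.0104). Neither gene overlapped between the groups. The R-spondins *Rspo3* and *Rspo1* rose from 1.43 ± 0.262 and 1.22 ± 0.347 FPKM to 3.34 ± 0.598 and 2.78 ± 0.926 FPKM (SD, n = 5; adjusted p = 0.00614 and 0.0368), and *Dkk3*, of the Dickkopf family, from 124 ± 12.3 to 167 ± 12.8 FPKM (adjusted p = 0.0284). Without *Plod1-/-* replicate 5, 3 of these genes were still higher, and over all fits that left out a mouse 3 to 5. *Rspo1* missed the adjusted p in 7 of the 10 fits and *Dkk3* in 5, while *Rspo3* passed in all 10. *Fzd8* lost the DEG call without *Plod1-/-* replicate 4. Of 34 tested TGF-beta and BMP pathway genes, *Smad6*, an inhibitor of BMP signals, was higher (log2 fold change 1.25, SE 0.28, adjusted p = 0.0321) and the ligand *Bmp4* lower (log2 fold change -0.64, SE 0.13, adjusted p = 0.0265). Without *Plod1-/-* replicate 5, 2 genes of this list were higher and 0 lower. *Smad6* lost the call without WT replicate 2 or 4 or *Plod1-/-* replicate 2 or 3.

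Receptors, a channel and neural genes were also among the increases. *Tbxa2r*, the thromboxane receptor that contracts smooth muscle, was at 10.4, 10.1, 9.57, 8.92 and 8.84 FPKM in WT aortas and 15.1, 19, 25.9, 26.2 and 20.4 FPKM in *Plod1-/-* aortas (log2 fold change 1.05, SE 0.14, adjusted p = 0.00506). It was the only DEG among 18 tested vasoconstrictor receptors and signalling genes, of which *Avpr1a*, a vasopressin receptor, was lower (log2 fold change -0.53, SE 0.13, adjusted p = 0.0411), a call that was missed in 9 of the 10 fits that left out a mouse, among them that without *Plod1-/-* replicate 5. *Tbxa2r* fell just below the limit for a DEG without *Plod1-/-* replicate 3 or 4. *Kcnh2*, the hERG potassium channel, was at 12.5, 18.1, 17.5, 22.3 and 16.6 FPKM in WT and at 28.3, 38.4, 38.6, 47.7 and 48.2 FPKM in *Plod1-/-* aortas (log2 fold change 1.16, SE 0.17, adjusted p = 0.00685). *Npy*, the sympathetic cotransmitter neuropeptide Y, was at 1.34, 0.588, 0.391, 1.05 and 0.693 FPKM in WT and at 2.6, 3.51, 5.85, 2.11 and 2.9 FPKM in *Plod1-/-* aortas (log2 fold change 1.25, SE 0.21, adjusted p = 0.013), and *Nrtn*, a neurotrophic factor of the GDNF family, at 1.13, 2.06, 1.08, 2.29 and 1.26 FPKM in WT and at 2.88, 4.54, 9.34, 10.4 and 6.45 FPKM in *Plod1-/-* aortas (log2 fold change 1.51, SE 0.28, adjusted p = 0.0181). In none of these genes did the groups overlap, which for *Kcnh2*, *Npy* and *Nrtn* was a condition for naming them. *Nfasc*, an adhesion molecule of axons and glia, was at 0.781, 0.679, 0.618, 0.523 and 0.54 FPKM in WT and at 3.68, 2.84, 2.82, 3.31 and 2 FPKM in *Plod1-/-* aortas (log2 fold change 1.26, SE 0.12, adjusted p = 0.00139). At the adjusted p, 2 of 9 tested Schwann cell and nerve markers were higher and 0 lower, against 3.33% and 3.23% of all genes. The 2 were *Nfasc*, which passed the filter through the *Plod1-/-* mice alone, and the myelin enzyme gene *Cnp* (0.55, adjusted p = 0.0147). Without *Plod1-/-* replicate 5, 1 gene was higher. By sign, 7 of the 9 were positive and 2 negative, and the lowest log2 fold change was -1.11. The list summed to 22.3 to 62.4 FPKM in WT aortas and 29.5 to 41.3 FPKM in *Plod1-/-* aortas. *Jph2*, which holds the calcium stores of muscle against the cell membrane, was at 27 to 47.7 FPKM in WT and 44 to 115 in *Plod1-/-* mice (log2 fold change 1.07, SE 0.24, adjusted p = 0.0327) and lost the call in 9 of the 10 fits that left out a mouse. Of 18 tested contractile genes, 0 were DEGs, the median was 0.14, and the coactivator *Myocd* was lower at the adjusted p (log2 fold change -0.57, SE 0.14, adjusted p = 0.0406), also missed in 9 of those fits, among them that without *Plod1-/-* replicate 5. *Spp1*, osteopontin, was at 1.14, 2.62, 2.28, 4.18 and 2.74 FPKM in WT aortas and 4.11, 13.7, 7.26, 18.5 and 20.5 FPKM in *Plod1-/-* aortas, where *Plod1-/-* replicate 1 fell below the highest WT mouse (log2 fold change 1.81, SE 0.38, adjusted p = 0.0277), and it lost the call in 4 of the 10 fits.

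**Figure D4:**
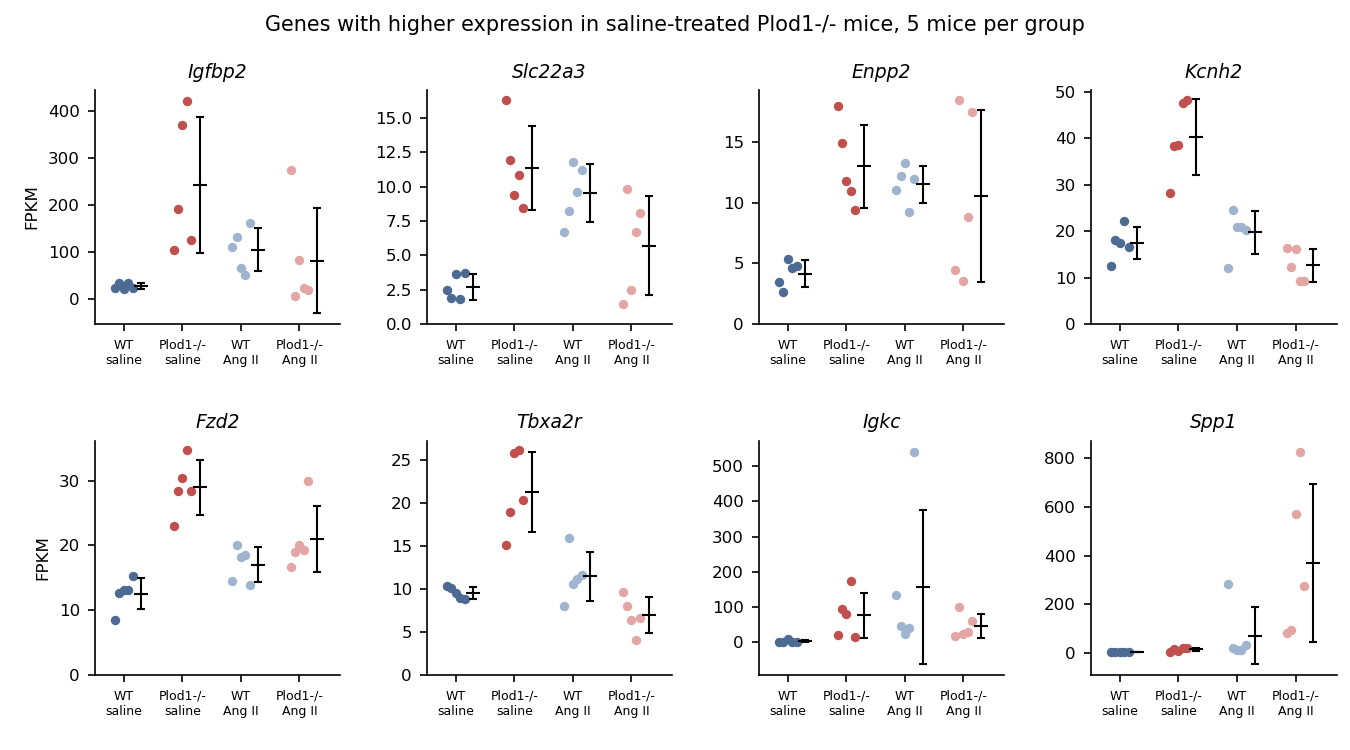
FPKM of 8 DEGs that were higher in saline-treated Plod1-/- mice, in each mouse (points) of the 4 groups with the mean and SD of 5 mice (black). In the saline groups Igfbp2, Slc22a3, Enpp2, Kcnh2, Fzd2, Tbxa2r and Igkc do not overlap, and under Ang II the genotypes overlap in all 8.

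Further DEGs without overlap belonged to none of these groups. *Sdsl*, *Ttc9*, *Tnk2* and *Plekhh3* had log2 fold changes of 1.28, 1.26, 1.26 and 1.14, with *Tnk2* encoding a cytoplasmic tyrosine kinase. Of the 10 fits that left out a saline mouse, *Plekhh3* lost the call in 4 and *Tnk2* in 2, while *Sdsl* and *Ttc9* kept it. The zinc finger repressors *Zfp503* and *Zfp703* rose from 2.01 ± 0.66 and 3.02 ± 1.02 FPKM to 5.83 ± 1.33 and 7.93 ± 0.99 FPKM (SD, n = 5; adjusted p = 0.00939 and 0.00695). *Prune2* and *Gprc5c*, an orphan receptor, went from 0.442 to 0.963 and 0.56 to 0.963 FPKM to 2.14 to 3.12 and 1.73 to 3.32 FPKM. On the lower side *Medag*, a gene of fat cell differentiation, was at 16.5, 11.7, 9.31, 13.3 and 6.96 FPKM in WT aortas and 3.88, 4.47, 3.2, 3.32 and 3.84 FPKM in *Plod1-/-* aortas (log2 fold change -1.36, SE 0.18, adjusted p = 0.00586). *Pdgfrl*, related in sequence to the PDGF receptors, was at 23.8, 15.9, 16.1, 17.2 and 13.2 FPKM in WT and at 7.37, 8.21, 4.86, 5.08 and 6.4 FPKM in *Plod1-/-* aortas (log2 fold change -1.3, SE 0.16, adjusted p = 0.00474), and *Ctla2b* at 7.39, 7.77, 6.85, 16.1 and 6.19 FPKM in WT and at 1.9, 3.9, 2.56, 1.59 and 2.18 FPKM in *Plod1-/-* aortas (log2 fold change -1.48, SE 0.24, adjusted p = 0.0114). Every *Plod1-/-* mouse lay below every WT mouse in these 3 genes, which was a condition for naming them. All 3 kept the call in all 10 fits that left out a mouse. *Gm24305* and *Gm24967*, annotated as snRNA, and ENSMUSG00000095585, which had no match in the annotation, were lower by the same test (-1.59, -1.24 and -1.6), and *Gm24967* lies opposite *Tut4*. *Gm24305* lost the call in 3 of the 10 fits and ENSMUSG00000095585 in 2, and *Gm24967* fell below the filter in 5.

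Some lists leaned to 1 side with few or no genes that passed. All 21 tested interferon-stimulated genes had positive log2 fold changes (median 0.30), and 0 passed the adjusted p. All 13 adipocyte markers were positive (median 0.87) with 0 passing, and the list summed to 426 to 1144 FPKM in WT aortas and 491 to 2335 FPKM in *Plod1-/-* aortas. Fatty acid and triglyceride synthesis genes were positive in 17 of 17 (median 0.74), of which *Srebf1*, their regulator, passed (log2 fold change 0.82, SE 0.16, adjusted p = 0.0238). Of 7 tested brown adipocyte markers, *Dio2*, which activates thyroid hormone, was lower (log2 fold change -1.04, SE 0.24, adjusted p = 0.0329), a call lost in 7 of the 10 fits that left out a mouse, among them that without *Plod1-/-* replicate 5, and the other 6 were positive. *Ucp1* itself was at 8.77, 4.68, 79.3, 0.955 and 159.9 FPKM in WT aortas and 219.8, 621, 75.4, 12.9 and 3.18 FPKM in *Plod1-/-* aortas, a wide spread within both groups. Red blood cell markers summed to 151 to 1444 FPKM in WT aortas and 60.1 to 1524 FPKM in *Plod1-/-* aortas. Members of a list share their mice, so a common sign in many genes is not many separate observations. Of 18 tested circadian clock genes, *Bhlhe41* was higher (log2 fold change 0.76, SE 0.16, adjusted p = 0.0292), and of 8 tested cell cycle genes 0 passed. Of the genes that the study itself follows, *Thbs1* was at 19.3, 18.1, 5.28, 11.9 and 7.84 FPKM in WT aortas and 4.29, 5.58, 16, 24.1 and 21.7 FPKM in *Plod1-/-* aortas under saline, with overlapping groups (log2 fold change 0.06, SE 0.49, adjusted p = 0.948). Its sign turned in 5 of the fits that left out a mouse, so no direction can be given.

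The same genes were read in the Ang II-treated mice, a separate set of 5 WT and 5 *Plod1-/-* animals. Of the 12356 genes tested there, 1373 (11.1%) were DEGs between the genotypes, 920 (7.45%) higher and 453 (3.67%) lower in *Plod1-/-* mice. Across all genes tested there the median was 0.12 on the log2 scale. By sign alone, 59.95% of all these genes were higher and 40.05% lower in *Plod1-/-* mice. Of 42 saline DEGs with higher expression that could be tested, 22 kept a positive sign under Ang II, 4 were again DEGs in the same direction (*Spp1*, *Npy*, *Sdc3* and *Dact3*), and 1, *Sphkap*, was a DEG in the opposite direction. Their median log2 fold change was 1.17 under saline and 0.06 under Ang II. Of 44 saline DEGs with lower expression, 11 kept a negative sign and 5 were again lower DEGs (*Plod1*, *Fbln1*, *Pi16*, *Clec3b* and *C7*), while 18 were DEGs with higher expression in *Plod1-/-* mice. Their median moved from -1.29 to 0.80.

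The largest changes of sign among the decreased genes were in inflammatory and early genes. *Hmox1* was lower in *Plod1-/-* mice under saline (log2 fold change -1.001) and higher under Ang II (5.47, adjusted p = 0.000885). *Ccl7* went from -1.77 to 4.92, *Fosb* from -2.54 to 4.31, *Pf4* from -1.66 to 3.9 and *Cd14* from -1.94 to 2.53, all as log2 fold changes between the genotypes. Among the folding genes, *Serpinh1* was at 232, 242, 277, 421 and 344 FPKM in Ang II-treated WT and 906, 321, 1089, 602 and 881 FPKM in Ang II-treated *Plod1-/-* mice (1.24, adjusted p = 0.0174), and *Hspa5* at 129, 103, 122, 179.9 and 122 FPKM in the same WT and at 314, 230.4, 295, 182 and 202 FPKM in the same *Plod1-/-* mice (0.89, adjusted p = 0.01). The median of the 31 ER genes was -0.53 under saline, and the median of those tested under Ang II was 0.53. Mitochondrial genes took 14.6% to 29.1% of the FPKM sum in Ang II-treated WT libraries and 9.23% to 21.1% in Ang II-treated *Plod1-/-* libraries. The ER median under Ang II was not computed without them. *Igfbp2* and *Igkc*, the largest increases under saline, had log2 fold changes of -1.3 and -1.03 under Ang II and missed the threshold there, with adjusted p-values of 0.232 and 0.331. In the model of all 20 mice, the difference between the genotype effects had to reach an adjusted p below 0.05 and a log2 value beyond 1. It passed in 16.1% of 13263 genes, with a positive value in 9.69% and a negative one in 6.36%. Among the saline DEGs it passed in 24 of the 43 higher and 39 of the 49 lower genes, each time against the saline direction, and since this test uses the saline mice that selected the genes, the counts describe them and are no independent evidence.

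**Figure D5:**
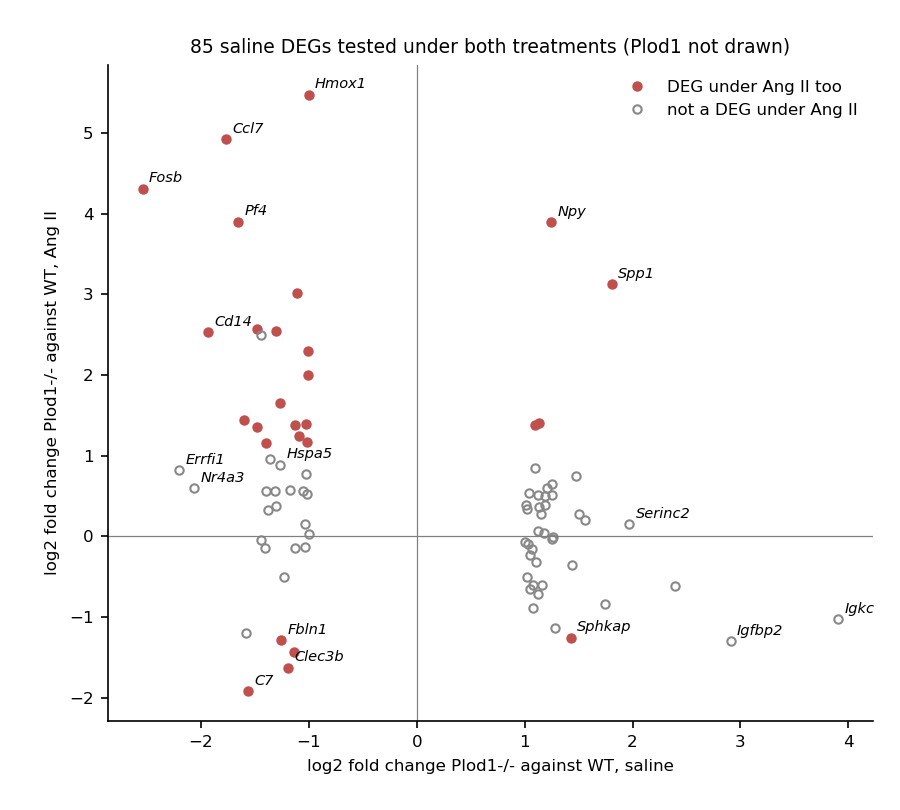
Log2 fold change between Plod1-/- and WT mice under saline (x axis) and under Ang II (y axis) for 85 saline DEGs tested in both, filled where the gene is also a DEG under Ang II. Most decreased genes lie above 0 on the y axis, with Hmox1, Ccl7, Fosb and Pf4 highest, and the increased genes scatter around 0.

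Of 63 DEGs followed through every alternative, 26 kept the call in all 10 fits that left out a saline mouse, 16 lost it in 1 to 5 and 15 in 6 or more, and 6 fell below the filter in 5 of the fits. The mice whose removal ended the most of these calls were WT replicate 2 with 26 and *Plod1-/-* replicate 4 with 25, followed by WT replicate 4 with 20, *Plod1-/-* replicate 3 with 17 and *Plod1-/-* replicate 5 with 16. None of the 63 changed direction in any of these fits.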

How the data were processed

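The authors removed ribosomal reads, aligned reads of unstranded libraries to the mouse genome (mm10), assembled transcripts and deposited gene values as FPKM, that is scaled to transcript length and to mapped reads. The methods name HISAT2, StringTie, cuffquant and cuffnorm, and the submitters' processing notes list HISAT2 2.1.0, Bowtie2 2.2.3 and HTSeq 0.6.0, so the exact steps behind the FPKM are not settled. cuffnorm scales libraries to each other, and a change in very abundant genes can shift all others. With FPKM alone, the number of reads behind a value is unknown. Relative depth was compared from the files.

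Gene IDs were named from GENCODE M21 (GRCm38), with a symbol for 43226 of 43422. Genes that reached 1 FPKM in 5 or more of the 10 saline mice were tested on log2(FPKM + 1) with limma 3.58.1 (lmFit, eBayes with trend; R 4.3.3) on the 10 saline mice, and p-values were adjusted over all genes by Benjamini-Hochberg. Fold changes are on that scale and understate low genes. DEGs had to pass an adjusted p of 0.05 and a log2 fold change of 1 in either direction. The Ang II groups were tested alike, and the interaction in 1 fit of 20 mice. An exact permutation test of 5 against 5 mice cannot go below 0.00794.

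Named are *Plod1*, the 20 largest increases and 20 largest decreases among DEGs without overlap, members of the lists and genes the study follows. *Sdc3*, *Dact3*, *Sbspon* and any other gene that fits none of these were chosen after their values were seen. Members, lists and the promoter element were chosen with earlier results of these data known. Alternatives were pseudocount, filter, variance model, weights, normalization, replicate block, all groups in one fit, call threshold and leaving out each mouse. Figures used matplotlib 3.10.9.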

Additional observations from a re-analysis of the deposited data

Results flagged for a closer look

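Of 224 groups of 5 mice examined for the followed genes, 15 (6.7%) held a mouse far from the other 4, where chance gives about 5%. Among WT mice, replicate 1 was high for *Errfi1* at 951 FPKM and *Egr1* at 611 FPKM and low for *Smad6* at 0.973 FPKM. Replicate 2 was high for *Hyou1* at 32.03 FPKM and *Sdf2l1* at 23.3 FPKM, replicate 3 for *Igkc* at 9.01 FPKM and replicate 4 for *Ctla2b* at 16.1 FPKM. Among *Plod1-/-* mice, replicate 1 was low for *Sncg* at 73.7 FPKM, and replicate 3 was high for *Bmp4* at 20.9 FPKM, *Ccl7* at 6.47 FPKM and *Ccl2* at 4.92 FPKM. Replicate 4 was high for *Hsp90aa1* at 76.9 FPKM, *Nr4a3* at 6.002 FPKM, *P4ha1* at 27.04 FPKM and *Smad6* at 14.2 FPKM.

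*Xist*, the RNA of the inactive X chromosome, was at 15.1 FPKM in the library labelled *Plod1-/-* saline replicate 5, a signal outside the comparisons above. The other 9 saline libraries were at 0.00939 to 0.0328 FPKM. The labels give the animals no sex, and the study's methods speak of males. Without this library 60 DEGs were found in place of 92.

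For the following genes the effect of genotype differed between Ang II and saline, by limma's interaction term over 20 mice. A pass needed an adjusted p below 0.05 and a log2 value beyond 1 in either direction. Values are the log2 effect under Ang II minus that under saline. Genes that met the adjusted p alone are not listed, such as *Fzd2* (-0.88, adjusted p = 0.00602). Of 112 genes followed, 54 passed with a positive and 20 with a negative value, against 9.69% and 6.36% of all genes. The genes were chosen in part by the same saline mice. Among genes of the ER and of collagen processing the values were *Hspa5* (2.16), *Creld2* (1.75), *Sdf2l1* (2.18), *Pdia6* (1.92), *Hsp90b1* (1.41), *Pdia3* (1.28), *Pdia4* (1.54), *Dnajb11* (1.31), *Hyou1* (1.12), *Xbp1* (1.54), *Atf4* (1.17), *P4ha1* (1.61), *P4ha2* (1.04), *P4hb* (1.66), *Plod2* (1.45), *Serpinh1* (2.33), *Pcolce* (1.45) and *Kdelr3* (2.199). Collagen, matrix and stromal genes had values of *Col1a1* (3.65), *Col3a1* (3.53), *Lox* (3.803), *Sparc* (1.92), *Tgfbi* (1.87), *Thbs1* (4.15), *Mfap5* (2.25), *Adamts1* (2.56), *Adam8* (4.35), *Mmp2* (1.54), *Mmp19* (2.42), *Pdgfra* (1.095), *Pdgfrl* (1.68), *Medag* (2.32) and *Timp4* (-2.59), of which *Timp4* alone was negative. Inflammatory genes had values of *Ccl2* (5.96), *Ccl7* (6.69), *Ccl9* (4.05), *Cxcl1* (4.13), *Pf4* (5.55), *Cd14* (4.46), *Il33* (2.92), *Tnfaip6* (3.86), *Serpina3n* (3.94), *Hmox1* (6.48) and *Bdkrb1* (2.51), and the immunoglobulin genes *Igkc* (-4.93) and *Ighm* (-3.01). Early and heat shock genes had values of *Fosb* (6.85), *Fos* (7.48), *Egr1* (4.48), *Nr4a3* (2.66), *Errfi1* (3.02) and *Hsp90aa1* (1.14). Genes of Wnt signalling, transport, channels and receptors, higher in *Plod1-/-* mice under saline, had values of *Fzd8* (-1.43), *Rspo1* (-1.35), *Rspo3* (-1.22), *Dkk3* (-1.51), *Igfbp2* (-4.21), *Serinc2* (-1.82), *Slc22a3* (-2.58), *Enpp2* (-1.79), *Kcnh2* (-1.77), *Tbxa2r* (-1.71), *Sphkap* (-2.68), *Trnp1* (-1.35), *Nfasc* (-1.29), *Gprc5c* (-1.23), *Sdsl* (-2.42), *Ttc9* (-1.28) and *Jph2* (-1.67). The remaining values were *Dio2* (1.19), *Gm24967* (1.72), *Gm24305* (2.36), *Ctla2b* (2.84) and ENSMUSG00000095585 (3.05).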

How the results depend on the processing

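Of the 92 DEGs, 90 were among the 149 DEGs (81 higher in *Plod1-/-* mice, 98 passing the interaction) with a pseudocount of 0.1 in place of 1. Without the filter on low values 41 DEGs were found, 25 higher and 16 lower, with 2 again DEGs in the same direction under Ang II and 32 passing the interaction. Here 40080 genes were tested in place of 11999. With gene-wise variances the same counts were, in the same order, 42, 25, 17, 2 and 32. With all 4 groups in one fit they were 57 DEGs, 24 higher, and 3 again DEGs under Ang II. At the adjusted p alone they were 786, 399, 387, 43 and 551, and at an unadjusted p below 1e-04 they were 36, 22, 14, 1 and 22. Weights per mouse moved the number of DEGs shared with Ang II from 9 to 14 and left 77 of the 92 calls. The adjusted p alone and the unadjusted p change the rule for a call. For the other settings the cause of these shifts was not tested. Fitting without the variance trend, quantile normalization and leaving out the mitochondrial genes gave 92, 89 and 95 DEGs.

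Replicate numbers did not pair the mice: same-numbered WT and *Plod1-/-* mice correlated at -0.12, -0.32, -0.16, 0.17 and -0.28 in their deviations, and 0 of 5 correlated best with their own number. With the replicate number as a block 63 DEGs were called, 23 of them lower, 60 shared with the 92, 1 again a DEG under Ang II and 40 passing the interaction.

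Over the fits that left out a mouse, DEGs ranged from 38 to 104, higher from 18 to 69, lower from 14 to 64, those again DEGs under Ang II from 3 to 11 and those passing the interaction from 26 to 73. Of the 112 genes followed, 1 changed sign, *Thbs1*, whose log2 fold change ran from -0.19 to 0.37 and was negative without WT replicate 3 (-0.19) or 5 (-0.06) and without *Plod1-/-* replicate 3 (-0.05), 4 (-0.19) or 5 (-0.15). The files give no read counts, so the depth behind low FPKM values is not known and no counting interval can be given.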

Other observations

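Some lists with few called genes are given here as values. Of 29 tested genes of heritable aortic disease, 3 were lower at the adjusted p (*Plod1*, *Mfap5* and *Notch1*) and 0 higher, with a median log2 fold change of -0.17 (2 lower without *Plod1-/-* replicate 5). Of 14 tested complement genes, *C7* alone passed, and 0 without that library. Of 17 glycolysis genes 0 passed, with 13 positive and a median of 0.24. Of 14 other collagen genes *Col4a4* was higher and *Col14a1* lower, with a median of 0.04, and 0 of them passed without that library. Mitochondrially encoded genes had a median of 0.32, with 12 of 13 positive and 0 called. These counts stand beside 3.33% of all genes higher and 3.23% lower.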
